A study of Homo sapiens with 6 samples.

Results

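The 10 genes described here build the neuronal cytoskeleton and the growth cone: the neurofilament genes NEFL, NEFM and INA, the growth cone gene GAP43, the tubulin gene TUBB3, the microtubule regulators DCX, MAP2, MAPT and STMN2, and CRMP1. They were chosen by symbol, with earlier results of these data known, and all 10 were found among the 26485 gene symbols of the count tables. RNA was sequenced from AF22, an established human line of neural stem cells made from induced pluripotent stem cells, in 3 libraries labelled shControl, a control short hairpin RNA, and 3 libraries whose genotype is given as COMMD3/COMMD3-BMI1 knockdown. Both groups are labelled as the same line and cell type, controls as wild type, and the labels give neither the knockdown reagent, the time after its delivery nor whether libraries came from separate cultures. P-values therefore set the difference between the groups only against how far libraries of a group differ, and that spread may be technical. Values with ± are means and SDs over the 3 libraries of a group.

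Neurofilaments are the intermediate filaments of neurons. A light chain (NEFL), a medium chain (NEFM), a heavy chain (NEFH) and α-internexin (INA) assemble together and set the calibre of axons. Microtubules, made of tubulins such as the neuron-enriched βIII-tubulin (TUBB3), run beside them and are bound by MAP2 in dendrites, by tau (MAPT) in axons and by doublecortin (DCX) in young migrating neurons, while stathmin-2 (STMN2) binds free tubulin. At the growing tip, GAP-43 (GAP43) lies under the membrane and CRMP1 relays semaphorin signals. Neural stem cells in culture can carry part of this set before they become neurons.

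The libraries held between 7294687 and 11579849 counts, and between 16979 and 17770 symbols had a count in each. COMMD3, the labelled target, had 29.67 ± 2.04 CPM (counts scaled to the library's TMM-adjusted total) in control libraries against 11.55 ± 1.22 CPM after knockdown, a log2 fold change of −1.37 (adjusted p = 2.34e-12, edgeR). BMI1 did not pass (log2 fold change −0.07), although its knockdown libraries (103.1 to 106.7 CPM) lay below its control libraries (108.6 to 113.0 CPM). Such a lack of overlap in that direction was found for 22.7% of all tested genes. COMMD3-BMI1 was listed at 0 in all 6 libraries. In the GENCODE v29 annotation, other genes on the same strand share all exon bases of COMMD3-BMI1. They share 27.3% of those of COMMD3 and 23.3% of those of BMI1. How such reads were assigned is not given, so this 0 does not show that the COMMD3-BMI1 transcript was absent. Of the stem cell markers, SOX2 had a mean of 287.9, NES of 659.5 and VIM of 1150 CPM in control libraries. HES5 was listed at 0 in all 6 libraries.

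The knockdown libraries had less neurofilament medium and light chain RNA and more GAP43 RNA, while the other tested genes of the set did not pass. Of the 10 genes, 7 had enough counts to be tested. NEFM and NEFL fell and GAP43 rose, each with an adjusted p under 0.05 over all 13632 tested genes (edgeR quasi-likelihood test, Benjamini-Hochberg). INA, TUBB3, MAP2 and CRMP1 did not pass. Of all tested genes, 33.3% were called, 15.3% as higher and 18.1% as lower, so a call is common in this comparison and 3 among 7 is not particular to the set. The libraries of the groups did not overlap for 3 members that were lower (NEFM, NEFL and MAP2) and 1 that was higher (GAP43), against 22.7% and 21.6% of all tested genes. The median log2 fold change of the 7 was −0.11 against 0.0015 over all tested genes. DCX, MAPT and STMN2 had few or no counts in either group and were not tested. In bulk RNA, fewer cells that carry a transcript and less of it per cell cannot be told apart.

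**Figure D1:**
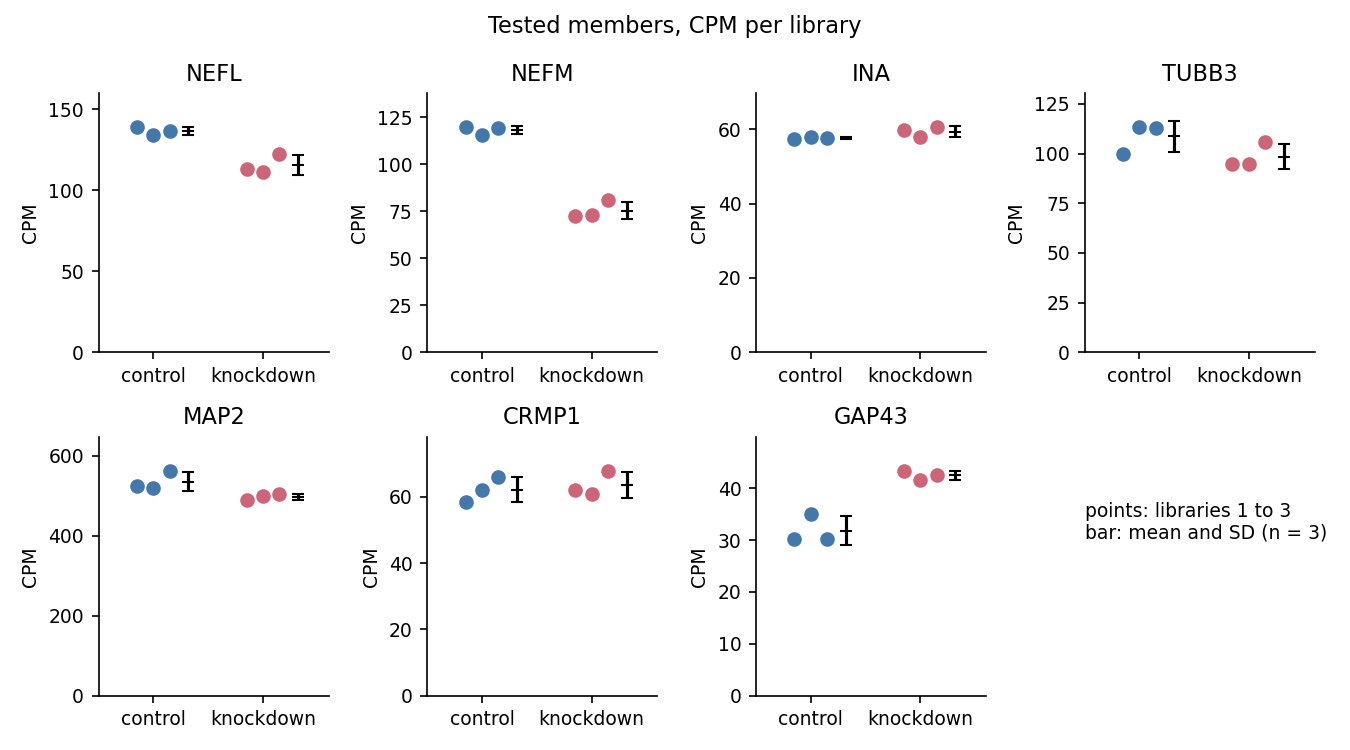
CPM (vertical axis, from 0) of the 7 tested genes in each control (blue) and knockdown (red) library, with mean and SD beside the points. All NEFM and NEFL knockdown points lie below all control points, and all GAP43 knockdown points lie above them.

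NEFM showed the largest difference of the 7 tested genes. Its control libraries had 119.6, 115.5 and 119.0 CPM and its knockdown libraries 72.25, 72.86 and 80.64 CPM. The groups did not overlap, and the highest knockdown library lay well under the lowest control library. The mean fell from 118.0 ± 2.18 to 75.25 ± 4.68 CPM, a 1.57-fold drop which is −0.65 on the log2 scale (SE 0.0491, adjusted p = 6.20e-12 by edgeR). Of all tested genes, 2.25% had a lower log2 fold change.

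NEFL fell by less. It had 138.9, 133.8 and 136.8 CPM in control and 113.1, 111.4 and 122.6 CPM in knockdown. Here too every knockdown library was below every control library, knockdown replicate 3 being the nearest. The mean went from 136.5 ± 2.56 to 115.7 ± 6.05 CPM, or −0.24 on the log2 scale (SE 0.0462, adjusted p = 1.60e-04 in edgeR).

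INA, whose product joins the other chains in young neurons, did not pass. Its libraries had 57.32, 57.93 and 57.59 CPM in control and 59.79, 57.84 and 60.58 CPM in knockdown, and the groups overlapped. The log2 fold change was 0.05 with a 95% interval from −0.06 to 0.16 (adjusted p = 0.553 by edgeR), an interval that does not reach the values of NEFM or NEFL. NEFH, named after its values were seen, was scarce, with 12 to 24 counts in a library, and did not pass (adjusted p = 0.561 by edgeR).

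The proportion of medium to light chain counts also differed between the libraries of the groups. NEFM had 0.8608, 0.8634 and 0.8699 counts for each NEFL count in the control libraries, against 0.6389, 0.6541 and 0.6577 after knockdown. Replicates lay within a narrow range and the groups stood apart. As a share of the counts of both genes, NEFM made up 46.3% in control replicate 1 (exact binomial 95% interval 44.5% to 48.1%) and 39.0% in knockdown replicate 1 (36.7% to 41.3%), and these intervals cover counting error only. This ratio uses counts of 2 genes from the same library, so scaling between libraries does not enter it.

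As knockdown minus control, the log2 ratio of NEFM to NEFL differed by −0.41, that of NEFM to INA by −0.69 and that of NEFL to INA by −0.28. In each of these 3 pairs, knockdown libraries lay below control libraries without overlap. The exact two-sided permutation test gave p = 0.1 for each pair (0.1 after Benjamini-Hochberg adjustment over the 3 pairs), which is the smallest p that 3 libraries against 3 allow, so this test could not pass 0.05 whatever the ratios were.

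**Figure D2:**
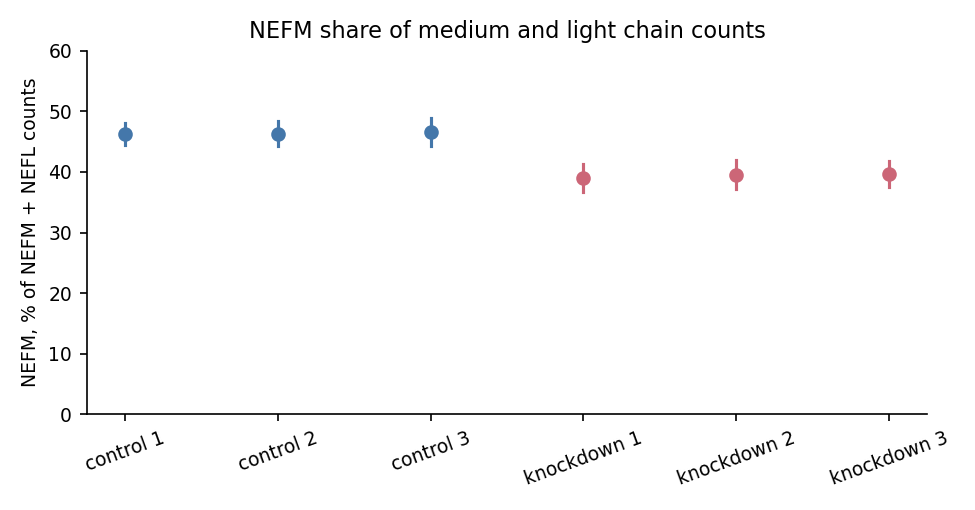
NEFM as a percentage of NEFM plus NEFL counts (vertical axis, from 0) in each library, with exact binomial 95% intervals as lines. The control libraries sit between 46.3% and 46.5% and the knockdown libraries between 39.0% and 39.7%.

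NEFM and NEFL are neighbours in the genome. In GENCODE v29 (GRCh38), the plus-strand gene NEFM (ENSG00000104722) covers bases 24913012 to 24919098 of chromosome 8 and the minus-strand gene NEFL (ENSG00000277586) bases 24950955 to 24957110. Their ends face each other across 31856 bases that hold 0 other annotated genes. INA (ENSG00000148798) is elsewhere, on chromosome 10 from 103277163 to 103290351. An antisense gene whose symbol is not among those of the count tables covers 38.9% of the exon bases of NEFM, and another covers 11.3% of those of NEFL. The library kit is directional but the strand setting of the counting is not given, so reads from these antisense genes may be among the counts, and their part in the result was not tested.

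GAP43 was the member that rose. It had 30.22, 34.97 and 30.26 CPM in control and 43.35, 41.55 and 42.48 CPM in knockdown. The knockdown libraries were close to each other and all above the highest control library, replicate 2. The mean went from 31.82 ± 2.73 to 42.46 ± 0.900 CPM, a 1.34-fold rise or 0.42 on the log2 scale (SE 0.0710, adjusted p = 2.72e-05 by edgeR). A higher log2 fold change was found for 5.02% of tested genes.

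GAP43 (ENSG00000172020), a plus-strand gene, covers bases 115623324 to 115721490 of chromosome 3 and shares no exon base with another annotated gene. The stretches around its annotated RefSeq start are shown because it is the member that rose, and the letters searched there were E-boxes (CANNTG, a palindrome that reads alike on both strands), sites that basic helix-loop-helix factors of neural cells are known to bind. The window of 300 bases runs from 250 bases before the start to 50 from it on (RefSeq, GRCh38.p14), and it holds 2 matches, printed 5′ to 3′ on the plus strand with the match in capitals.
GAP43 E-box 1, chr3:115623468-115623497: agagggagcgagCATGTGcgatgagcaata
GAP43 E-box 2, chr3:115623499-115623528: ctgtggaccttaCAGTTGctgctaactgcc
The matches begin at bases 221 and 252 of the window, whose base 251 is the start. All 30 bases of both printed stretches also lie in an exon of GAP43 in GENCODE v29, which places the gene's first base further upstream. At least 1 E-box is in 68.7% of the 35116 RefSeq windows of that length, so a match is common. Neither a GC box (GGGCGG, both strands) nor a TATA box (TATAAA, both strands) is in the window of GAP43, where 45.0% and 11.5% of all windows hold one. The INA window holds 4 GC box matches and is 71.3% G and C, against 52.7% for GAP43 and a median of 58.7% over all windows. It also holds 2 E-box matches, as the GAP43 window does. The MAP2 windows of 40.0% and 52.3% G and C hold 2 E-boxes each and 0 GC or TATA boxes. Another MAP2 window, of 45.3%, holds 0 E-boxes. These are descriptions of the sequence, and the counts do not show which start was used.

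TUBB3 and MAP2, the most abundant microtubule genes of the set, were lower in mean but did not pass. TUBB3 had 99.54, 113.2 and 113.1 CPM in control and 94.76, 94.74 and 105.8 CPM in knockdown. Control replicate 1 lay under knockdown replicate 3, so the groups overlapped. The log2 difference was −0.13 with a 95% interval from −0.24 to −0.02 (SE 0.0538, adjusted p = 0.0586 by edgeR), and TUBB3 passed without control replicate 1 (−0.20, adjusted p = 0.00591 by edgeR), without knockdown replicate 3 (−0.18, adjusted p = 0.0119 by edgeR) and with no filter on low counts (adjusted p = 0.0403 by edgeR). TUBB3 (ENSG00000258947) covers bases 89921392 to 89938761 of chromosome 16, plus strand. Another annotated gene on that strand, whose symbol is not among those of the count tables, covers 35.8% of the TUBB3 exon bases, and which of these reads were counted is not given.

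MAP2 had 524.5, 519.1 and 562.3 CPM in control and 489.0, 498.5 and 504.3 CPM in knockdown. The groups did not overlap, as for 44.3% of all tested genes, but the gap between them was small. The log2 fold change was −0.11 with a 95% interval from −0.20 to −0.01 before adjustment over genes (adjusted p = 0.0661 by edgeR), and it was −0.07 without control replicate 3 (adjusted p = 0.193 by edgeR). MAP2 (ENSG00000078018, chromosome 2, 209424058 to 209734118, plus strand) shares no exon base with another annotated gene.

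CRMP1 overlapped between the groups. It had 58.53, 62.05 and 65.99 CPM in control and 62.09, 60.75 and 67.89 CPM in knockdown, so the spread within each group exceeded the distance between them. The log2 fold change was 0.04 with a 95% interval from −0.08 to 0.16 (adjusted p = 0.602 by edgeR), and it turned to −0.005 without control replicate 1 and to −0.0029 without knockdown replicate 3. CRMP1 (ENSG00000072832) covers bases 5748084 to 5893058 of chromosome 4, minus strand, and 2.73% of its exon bases overlap EVC on the other strand.

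**Figure D3:**
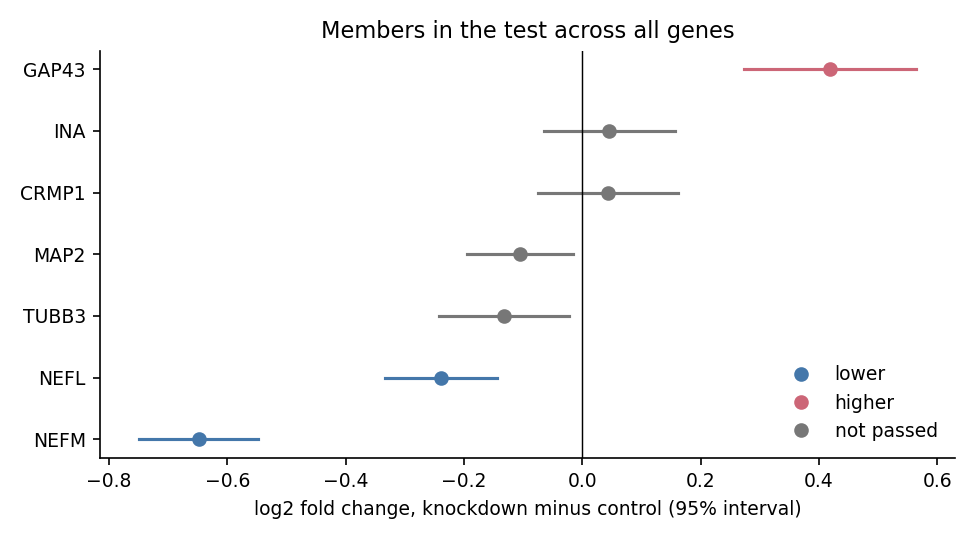
Log2 fold changes, knockdown minus control (horizontal axis), of the 7 tested genes with 95% intervals as lines. NEFM at −0.65 and GAP43 at 0.42 lie at the ends, and the intervals of INA and CRMP1 hold 0.

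DCX, MAPT and STMN2 were scarce in both groups. DCX had 11, 4 and 5 counts in control and 9, 12 and 10 in knockdown. These sums of 20 and 31 counts give a ratio of 1.53 with an exact 95% interval from 0.844 to 2.83 for counting error, so no difference was detectable at this depth. MAPT had 10, 13 and 8 counts in control and 7, 7 and 9 in knockdown, a ratio of 0.731 with an interval from 0.407 to 1.30. STMN2 had 0 counts in all 6 libraries, which allows up to 0.259 to 0.42 CPM in a library at 3 counts, and shares no exon base with another annotated gene. In GENCODE v29, DCX (ENSG00000077279) covers bases 111293779 to 111412429 of chromosome X, MAPT (ENSG00000186868) bases 45894382 to 46028334 of chromosome 17 and STMN2 (ENSG00000104435) bases 79610814 to 79666175 of chromosome 8.

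Per length of exon, 7 members were well expressed and the other 3 were near or at 0. MAP2 was the highest in control at 46.3 ± 2.03 CPM per kilobase of annotated exon, followed by NEFL at 31.5 ± 0.591, NEFM at 26.9 ± 0.497 and TUBB3 at 24.5 ± 1.77. INA at 17.8 ± 0.0947, GAP43 at 15.2 ± 1.31 and CRMP1 at 10.7 ± 0.641 came next. MAPT at 0.0775 ± 0.021 and DCX at 0.0688 ± 0.0241 CPM per kilobase were far below and did not differ from each other beyond their spread. In knockdown, NEFM at 17.2 ± 1.07 CPM per kilobase was below TUBB3 at 22.2 ± 1.45 and GAP43 at 20.3 ± 0.431, and its libraries overlapped with those of INA at 18.4 ± 0.436. Among the 7 tested members in control, no neighbours in the order overlapped. The order depends on the length used: with the median length of a gene's coding transcripts, an alternative added after the data were seen, TUBB3 was first at 132.5 CPM per kilobase in control, and MAP2 second at 100.9.

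**Figure D4:**
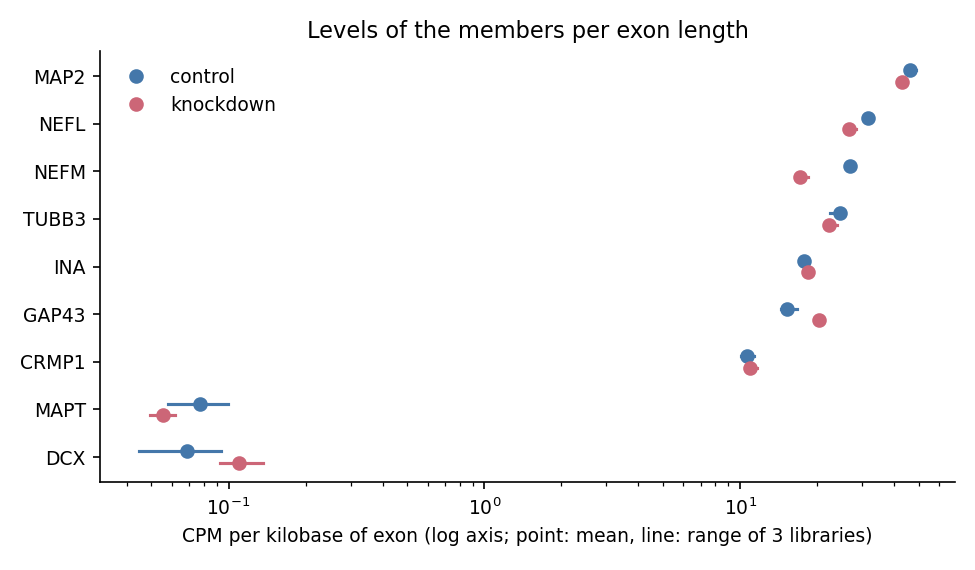
CPM per kilobase of annotated exon (horizontal log axis) for the 9 members with counts, as the mean (point) and range (line) of 3 control (blue) and 3 knockdown (red) libraries. The 7 tested members lie between 10.7 and 46.3 in control, and MAPT and DCX at 0.11 or less.

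Other cytoskeleton genes were read from lists of related genes, with no test over a list. Their counts stand beside 18.1% lower and 15.3% higher among all tested genes. Of 8 tested genes of other intermediate filaments, 3 fell and 1 rose. SYNM, a filament protein that pairs with vimentin and nestin, fell from 63.02 ± 2.78 to 44.84 ± 3.02 CPM, or −0.49 on the log2 scale (adjusted p = 1.77e-07 in edgeR), and the nuclear lamin LMNB1 by 0.25 on the log2 scale, while lamin A/C (LMNA) rose by 0.20. LMNA was at 0.13 without knockdown replicate 3 (adjusted p = 0.0468 by edgeR). The stem cell filaments NES and VIM did not pass, at log2 fold changes of 0.09 and 0.05. NES passed without control replicate 3 (adjusted p = 0.019 by edgeR) and with scaling to library size alone (adjusted p = 0.0195 by edgeR). In GENCODE v29, genes on the other strand cover 27.7% of the exon bases of SYNM and 24.4% of those of VIM. Their part in the counts was not tested.

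Among 13 other tested tubulins, 4 fell and 0 rose, against 18.1% and 15.3% of all tested genes. TUBG1, the γ-tubulin of microtubule nucleation, had the smallest p and fell from 114.0 ± 7.97 to 91.14 ± 3.48 CPM, or −0.32 on the log2 scale (adjusted p = 1.51e-05 in edgeR). TUBB6 and TUBA1B fell by 0.24 and 0.17. The abundant TUBB and TUBA1A had log2 fold changes of −0.06 and −0.05 and did not pass. Tubulin genes resemble each other, so reads that match several of them may be split in ways the sources do not state. Genes on the other strand cover 36.6% of the exon bases of TUBA1B, 20.3% of those of TUBB6 and 5.8% of those of TUBG1. Their part in the counts was not tested. The median log2 fold change of the 13 was −0.06.

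Other microtubule-associated proteins moved in both directions, with 7 of 29 tested lower and 4 higher (median −0.03). MAP1B, an early axonal microtubule protein, had 838.5, 866.0 and 931.5 CPM in control and 663.2, 717.1 and 676.6 CPM in knockdown. Its groups did not overlap, and the log2 difference was −0.36 (SE 0.0474, adjusted p = 6.23e-07 by edgeR). DCLK2, a relative of doublecortin, fell by 0.38, the plus-end protein CLASP1 by 0.33 and NAV2 by 0.36 on the log2 scale. MAPRE3, 1 of the 4 higher genes and named after its values were seen, rose by 0.48 (adjusted p = 6.59e-05 by edgeR).

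STMN3, a neuronal relative of STMN2, had the lowest log2 fold change of its list. It had 138.3, 142.1 and 152.4 CPM in control and 88.06, 92.99 and 92.47 CPM in knockdown. Every knockdown library was far below every control library, and the difference was −0.66 on the log2 scale (SE 0.0475, adjusted p = 2.03e-12 by edgeR). The ubiquitous stathmin STMN1, at 415.2 ± 14.6 CPM in control, did not pass (log2 fold change −0.05). In this list of other stathmins, severing and tubulin-modifying enzymes, 7 of 20 tested fell and 4 rose (median −0.05), among them the tubulin polyglutamylase TTLL4 and the severing protein FIGN, lower by 0.29 and 0.28, and KATNAL1, higher by 0.30.

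The closest relatives of CRMP1 are the DPYSL genes, and 2 of 4 fell. DPYSL3 went from 161.1 ± 6.70 to 127.3 ± 1.86 CPM, or −0.34 on the log2 scale (adjusted p = 6.57e-07 in edgeR) and DPYSL2 fell by 0.18. DPYSL5 had a log2 fold change of −0.11 and did not pass, but passed without control replicate 1 (−0.17, adjusted p = 0.0132 by edgeR) and with no filter on low counts (adjusted p = 0.0481 by edgeR). It was −0.05 without control replicate 3 (adjusted p = 0.403 by edgeR) and −0.07 without knockdown replicate 1 (adjusted p = 0.393 by edgeR).

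Of the functional relatives of GAP43, MARCKS fell and BASP1 did not pass. MARCKS, which like GAP-43 holds phosphoinositides at the membrane, fell from 575.7 ± 8.60 to 468.8 ± 11.9 CPM, or −0.30 on the log2 scale (adjusted p = 2.66e-06 in edgeR). BASP1, the third protein of this kind and named after its values were seen, had a log2 fold change of 0.08 with a 95% interval from −0.01 to 0.17 (adjusted p = 0.17 by edgeR). Of 29 tested growth cone membrane and actin regulators, 6 fell and 5 rose (median 0.02), with the actin-binding ABLIM1 and DBNL lower by 0.29 and 0.23 and the membrane protein GPM6B by 0.16. PFN2, 1 of the 5 higher genes and named after its values were seen, rose by 0.15 (adjusted p = 0.00558 by edgeR).

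Of 17 tested kinases and phosphatases of tau and neuronal microtubule proteins, 5 fell and 2 rose (median −0.03). CDK5R1, the p35 activator of the neurofilament and tau kinase CDK5, fell from 43.66 ± 1.43 to 32.26 ± 0.991 CPM, or −0.44 on the log2 scale (adjusted p = 5.62e-06 in edgeR).

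**Figure D5:**
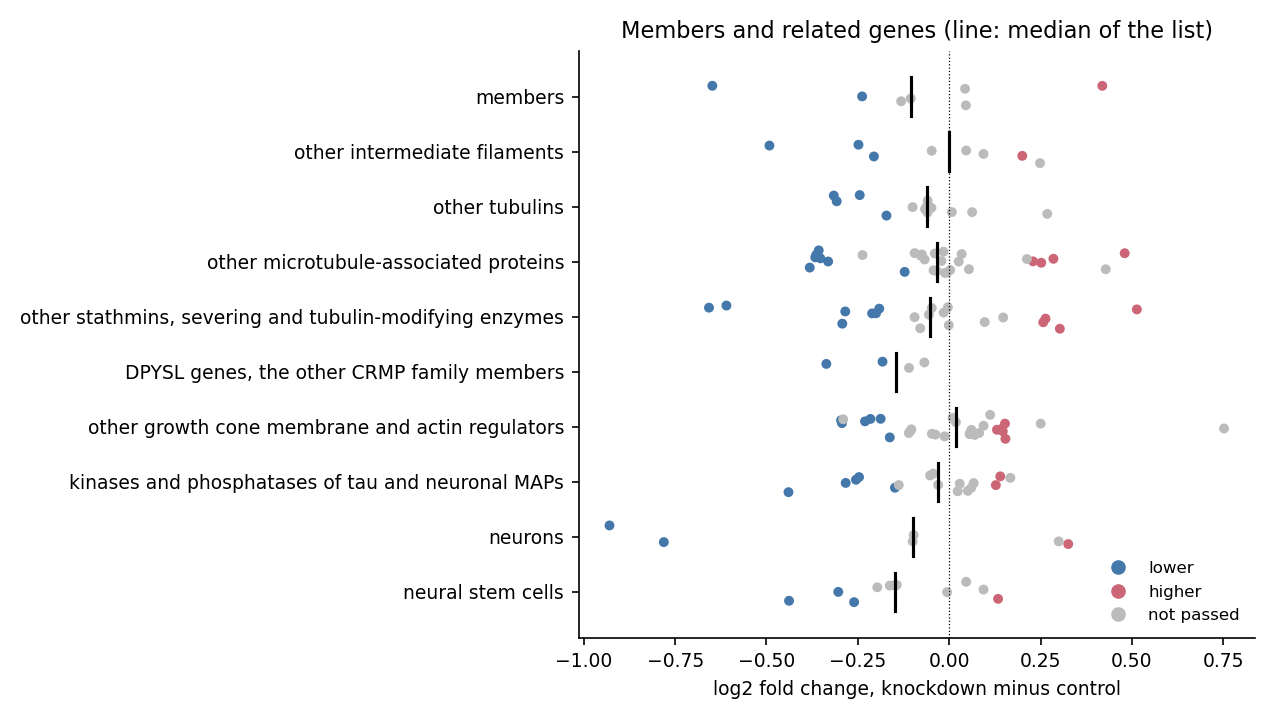
Log2 fold changes, knockdown minus control (horizontal axis), of the tested genes in the 10 lists shown (points; blue lower, red higher, grey not passed), with the list's median as a line. The medians of these 10 lists lie between −0.15 (neural stem cell and DPYSL lists) and 0.02 (growth cone list).

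Some markers of neurons and stem cells moved with the groups. Of 18 neuron markers, none of them among the 10 genes, 6 were tested and 5 were at 0 in all libraries (ELAVL4, NEUROD1, NEUROD2, NEUROD4 and NEUROG1). Their summed level was 112.2 to 118.6 CPM in control and 106.4 to 109.5 CPM in knockdown. ELAVL3, a neuronal RNA-binding protein, fell from 21.46 ± 1.05 to 12.51 ± 1.18 CPM, or −0.78 on the log2 scale (adjusted p = 6.21e-07 in edgeR) and the vesicle protein SYP from 5.84 ± 0.742 to 3.08 ± 0.149 CPM. ELAVL2, a relative of ELAVL3, rose by 0.33 on the log2 scale, and SYT1 did not pass (−0.10).

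Of 11 tested stem cell markers, 4 fell (SOX2, PROM1, HES1 and NOTCH1) and MSI1 rose, and the summed level of the list was 2849 to 3037 CPM in control and 2839 to 2939 CPM in knockdown. The call of SOX2 was lost without control replicate 2 (adjusted p = 0.0579 by edgeR) and without knockdown replicate 3 (adjusted p = 0.0562 by edgeR). The call of MSI1 (0.13, adjusted p = 0.031 by edgeR) was lost in DESeq2 (adjusted p = 0.099) and, by edgeR, without any 1 of the libraries except knockdown replicate 3, with adjusted p between 0.0517 and 0.23. In the pluripotent cell list, TDGF1 was at 0 and NANOG had 0 to 2 counts in a library. The list summed to 531.3 to 535.5 CPM in control and 635.1 to 693.2 CPM in knockdown. Within it LIN28A rose from 303.6 ± 6.83 to 456.8 ± 25.4 CPM (adjusted p = 1.20e-11 by edgeR), POU5F1 fell from 59.08 ± 2.28 to 45.69 ± 4.02 CPM, and DPPA4 did not pass. The sums of the astrocyte (GFAP at 0), neural crest, fibroblast and leukocyte lists overlapped. Within them S100B, of the astrocyte and neural crest lists, fell from 69.71 ± 1.49 to 45.47 ± 3.77 CPM (adjusted p = 1.53e-09 by edgeR). PDGFRB, of the fibroblast list, fell from 76.57 ± 6.18 to 43.23 ± 1.94 CPM (adjusted p = 7.68e-12 by edgeR). GJA1, of the astrocyte list, rose from 282.8 ± 9.15 to 311.9 ± 6.92 CPM (adjusted p = 0.0117 by edgeR). COL1A1, of the fibroblast list, rose from 63.76 ± 4.39 to 76.00 ± 9.15 CPM (adjusted p = 0.00224 by edgeR). Of 3 tested astrocyte markers 1 fell and 1 rose, and of 6 tested fibroblast markers 2 fell and 1 rose. Among all tested genes, 18.1% fell and 15.3% rose. The part of all these markers in the neurofilament and GAP43 differences was not tested.

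The 7-base word TCATCCA in 3′ UTRs, singled out because of the changes in these data, was looked for on the transcript strand of each gene's longest annotated 3′ UTR. It is in 1694 of the 12112 tested genes with a 3′ UTR of 50 bases or more, and in none of the 7 tested members. DCX and MAPT hold it. The word is also in TUBG1, NAV2, STMN3, DPYSL2, DPYSL5, MARCKS, DBNL and SYP, named above. Genes that were called lower but lack it include SYNM, MAP1B, DPYSL3, CDK5R1 and ELAVL3. Since the word was chosen from these fold changes, nothing is read from them here. 3′ UTRs differ in length, and absence says only that these letters are not in the annotated stretch.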

How the data were processed

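RNA was sequenced in 3 control and 3 knockdown AF22 libraries, from 700 ng of total RNA each with a directional kit, per the labels' protocols. Trim Galore 0.6.6, STAR 2.7.10a and bedtools, with the hg38 build, appear in the submitters' processing notes. How reads were counted, with which strand option and on which gene models, is not given in the sources used here. For each library the authors deposited 1 table of raw read counts per gene symbol. Members and gene lists were chosen with earlier results of these data known.

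The filterByExpr rule in edgeR 4.0.16 under R 4.3.3 left 13632 genes, which hold 99.9% of the counts of a library. Counts were scaled by TMM and compared by the quasi-likelihood test without covariates, with Benjamini-Hochberg adjustment over all tested genes and a threshold of 0.05. The standard error is the log2 fold change divided by the square root of F. CPM are the deposited counts scaled to the TMM-adjusted library. Exon lengths, positions and overlaps come from GENCODE v29, promoters from RefSeq. Promoter windows were kept for 6 of 10 members. Member windows on chromosome 8, where NEFL, NEFM and STMN2 lie, were left out by rule. The fits were tested on simulated data. Alternatives were scaling by library size alone, by RLE or by upper quartile, other filters, DESeq2 1.42.0, limma-voom (limma 3.58.1), a replicate block, leaving out each library, and a threshold of 0.01. Chi-square statistics of replicate pairs, 1.23 to 1.99 per degree of freedom, were above sampling noise, so each library was counted once. All members, the genes of a list with the smallest adjusted p (up to 4) or highest mean (up to 2), and the defining markers could be named. The result of 1 marker list is not reported here.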

Additional observations from a re-analysis of the deposited data

How the results depend on the processing

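The direction and side of the threshold of NEFM, NEFL and GAP43 held in all 15 alternatives run. NEFM ranged from −0.70 to −0.61 on the log2 scale, NEFL from −0.28 to −0.21 and GAP43 from 0.37 to 0.49. With the replicate number as a block, 4 of the 7 tested members were lower, since TUBB3 (adjusted p = 0.00939) and MAP2 (adjusted p = 0.0281) also passed; this block fit called 2458 genes higher and 2790 lower. Libraries with the same number correlated at 0.0792, 0.00548 and 0.0713 in their deviations from the group means. Those with different numbers correlated between −0.104 and 0.0387. The labels give the number no meaning, so it was not taken as a pairing. These correlations do not decide whether libraries were paired. Leaving out 1 library gave 1 member higher throughout and 2 to 3 lower, with 1606 to 1964 of all genes higher and 1949 to 2333 lower. DESeq2 called 1100 genes higher and 1643 lower, a threshold of 0.01 gave 1224 higher and 1719 lower, and the cause of the difference for DESeq2 was not tested. Leaving out 1 library moved CRMP1 between −0.00495 (without control replicate 1) and 0.0859, with −0.00293 without knockdown replicate 3. DPPA4, at −0.01, lay between −0.0368 and 0.0292 without 1 library and at 0.00766 with library size alone. Of 780 values of 52 of the named genes, 757 kept direction and call, 10 gained a call, 9 lost it and 4 turned. With median coding transcript lengths, control levels per kilobase were 42.6 for NEFL, 41.7 for NEFM, 17.7 for GAP43, 132.5 for TUBB3, 100.9 for MAP2, 21.4 for CRMP1, 0.301 for MAPT and 0.114 for DCX. Depth limits DCX, MAPT and STMN2.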

Other observations

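INSM1, a transcription factor of newborn neurons and neuroendocrine cells, was the neuron marker below the filter whose libraries did not overlap. It had 3, 4 and 4 counts in control and 18, 9 and 13 in knockdown, a ratio of 3.59 with an exact 95% interval from 1.81 to 7.75 for counting error. In the edgeR fit with no filter its log2 fold change was 1.81 (adjusted p = 8.79e-04), while DCX, another gene of young neurons, had 0.61 (adjusted p = 0.363). INSM1 was singled out after its values were seen. It was higher in knockdown while ELAVL3 and SYP of the same list were lower.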
